A study of Homo sapiens with 12 samples.

Results

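The replication-dependent histone genes were examined as the rows of the count table that carry the older histone cluster symbols (HIST1H to HIST4H), without the 13 rows whose symbols mark pseudogenes by PS and a number. This gave 76 of the 56269 genes in the table, of which 6 encode linker histone H1, 17 H2A, 23 H2B, 15 H3 and 15 H4. On GRCh38, 55 lie on chromosome 6, 20 on chromosome 1 and 1 (HIST4H4) on chromosome 12. The GENCODE release 29 annotation lists 70 as protein coding and 6 as pseudogenes.

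The libraries were made from HEYA8, an established line of ovarian cancer cells, and number 12, with 3 for each of 4 groups. One group carried the control vector, and the others a construct of betaglycan (BG, the type III TGF-β receptor encoded by TGFBR3). In ∆GAG-BG both attachment sites for glycosaminoglycan (GAG) chains are mutated from serine to alanine, and in S534A (CS-BG) and S545A (HS-BG) a single site is. All groups were grown in RPMI-1640 with 10% FBS. The labels call the treatment resting state, and the study describes ordinary growth medium. Per the study's methods, stable lines were made with a pHIV-dTomato lentivirus and sorted on dTomato, and the sources used here do not say whether the 3 libraries of a group are separate cultures. P-values then measure only the spread between these libraries, which may be technical. The third S545A library has a title that reads S545S and a genotype label that reads S545A.

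Total counts ran from 16410001 to 29504297 per library. TGFBR3, given in CPM (counts scaled to a common library size), stood at 476, 413 and 456 for S534A (libraries 1, 2 and 3) and at 574, 521 and 520 for S545A. In the library labelled ∆GAG-BG 1 it was 259, but 20.3 and 21.4 in ∆GAG-BG 2 and 3. In the library labelled control vector 1 it was 15.9, but 259 and 259 in control vector 2 and 3. The levels therefore go against the labels in these 2 groups, so each comparison that uses them was also run on libraries 2 and 3 alone and on library 1 alone, a choice made after seeing the data. Within S545A, within ∆GAG-BG and within control vector, libraries 2 and 3 were close to each other (chi-square per degree of freedom over all genes 1.37 to 1.89, against 15.6 to 69.1 for the other pairs of a group) but differed by more than sampling noise, and were counted separately. Of the markers of the labelled cell type, PAX8 (193 to 295 CPM) and KRT7 (745 to 1139 CPM) were present, while CDH1 and MUC16 had 0 counts throughout. Among fibroblast markers, DCN and LUM had 0 counts and PDGFRB ran from 0.700 to 5.04 CPM. Among leukocyte markers, CD3E had 0 counts, PTPRC at most 2 and CD14 at most 4. Among endothelial markers, PECAM1 ran from 0.205 to 0.767 CPM, VWF from 2.63 to 14.9 CPM and CDH5 from 168 to 431 CPM.

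Replication-dependent histone genes supply the core histones H2A, H2B, H3 and H4, which wrap DNA into nucleosomes, and the linker H1, mainly while DNA is copied in S phase. Their mRNAs are unusual among those of animal cells in that most end in a conserved stem-loop instead of a poly(A) tail. The stem-loop is bound by SLBP, which takes part in processing, export, translation and decay of the message. Some of these genes, such as HIST1H1C, HIST1H2AC, HIST1H2BD, HIST1H2BK and HIST2H2BE, are known also to give polyadenylated transcripts that run past the stem-loop. Libraries made by poly(A) selection would hold mainly the latter. Whether ribosomal RNA was removed by poly(A) selection or by depletion is not given in the sources used here.

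The stem-loop was searched for in the members' annotated transcripts (GENCODE release 29) as a 6-base stem, a 4-base loop and the returning stem, 16 bases in all. It was found in 35 of the 76 genes (14 H2B, 8 H4, 7 H2A and 6 H3), against 182 of all 19669 protein-coding genes with a transcript (0.925%, the members included). No H1 transcript held it, and the counted models of many members without it cover the coding sequence only. The sequences below show it, in capitals, in the transcripts of 7 well-counted members, because the annotated transcripts differ in how many bases follow it.
HIST2H2BE: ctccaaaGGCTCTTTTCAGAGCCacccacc
HIST1H2AC: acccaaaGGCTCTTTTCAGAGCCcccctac
HIST3H2A: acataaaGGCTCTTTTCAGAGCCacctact
HIST1H2BD: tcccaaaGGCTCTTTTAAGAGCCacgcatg
HIST1H2BH: acccaaaGGCTCTTTTCAGAGCCacttaat
HIST1H4I: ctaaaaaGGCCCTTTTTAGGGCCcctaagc
HIST4H4: tccaaaaGGCCCTTTTCAGGGCCcccaaac
The same 16 bases, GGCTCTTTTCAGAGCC, stood in 18 of the 35 genes, and 6 versions occurred in all. The H4 genes shown hold other versions. The transcript used for each gene was the longest annotated one with the stem-loop, and shorter ones may end nearer to it. Only 7 of the 35 transcripts ended within 50 bases of the stem-loop, as a mature histone mRNA does. In 18 more than 1000 bases followed it: 1729 in HIST2H2BE, 1640 in HIST1H2BH, 1510 in HIST4H4 and 1128 in HIST1H2AC. Where the counted model covers these bases, as in the genes just named, the count includes any read from RNA that continues past the stem-loop. In HIST2H2BC and HIST2H2BD, 5804 and 2976 bases follow it in the transcript. Their counted models are only 580 and 493 bases, so most of that stretch is not counted.

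The proximal promoters were also read from RefSeq (GRCh38.p14), in which 60 of the 76 members had an entry spanning 250 bases before to 50 after the start site. The octamer ATTTGCAT, known from histone H2B promoters, stood in 9 of 13 H2B and 11 of 16 H2A promoters, against 1.80% of the 27305 promoters of all genes. TATAAA stood in 40 of 60 members against 11.95% of all genes. CCAAT was in every H1, H2A, H2B and H3 promoter held but in 3 of 13 for H4, against 35.7% of all genes. The H1 element AAACACA was in 6 of 6 H1 promoters (5.76% of all genes) and GGTCCG in 12 of 13 H4 promoters (11.2% of all genes). Both strands were searched, and these motifs can overlap others not searched for. Windows of neighbouring genes can also overlap, so that the same octamer is counted for both, as for HIST2H2BE and HIST2H2AC. HIST1H3D and HIST1H2AD have the same window. The 150 bases before the start site are given for 4 of the 5 members with the highest levels, with these motifs in capitals on either strand.
HIST1H2BK: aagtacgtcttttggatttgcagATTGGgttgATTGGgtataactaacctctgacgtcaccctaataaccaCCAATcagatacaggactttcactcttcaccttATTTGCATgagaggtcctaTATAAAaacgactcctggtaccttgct
HIST1H2AC: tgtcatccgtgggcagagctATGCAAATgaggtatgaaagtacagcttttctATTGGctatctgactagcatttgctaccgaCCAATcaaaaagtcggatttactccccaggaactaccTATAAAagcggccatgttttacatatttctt
HIST1H1C: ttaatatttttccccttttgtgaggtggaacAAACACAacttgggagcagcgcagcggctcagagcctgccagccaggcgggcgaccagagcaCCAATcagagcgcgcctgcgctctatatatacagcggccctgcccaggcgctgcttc
HIST1H4I: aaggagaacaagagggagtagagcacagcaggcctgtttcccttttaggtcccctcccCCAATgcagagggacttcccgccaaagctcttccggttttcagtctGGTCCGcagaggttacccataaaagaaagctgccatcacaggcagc
They lie at chr6:27146859-27147008 (minus strand), chr6:26124022-26124171 (plus), chr6:26056471-26056620 (minus) and chr6:27139132-27139281 (plus), in that order. The H2B gene has the octamer 46 bases before the start and a TATA box 27 bases before it, the H1 gene has the H1 element 119 and a CCAAT box 57 bases before it, and the H4 gene has GGTCCG 46 bases before it.

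Histone mRNAs were a very small part of these libraries. The 76 genes together received 1347 to 3231 counts per library. Their share of all counts was lowest in S534A 2, at 0.00616% (95% Wilson interval 0.00588 to 0.00644), and highest in control vector 1, at 0.0110% (0.0107 to 0.0114). These intervals cover counting error only. Of the 76 genes, 13 had no count in any library, a further 12 had at most 3 in any library, and 16 had at least 10 in every library. A count of 0 allows up to 3 counts, or 0.100 to 0.182 CPM. Those at 0 include HIST1H1T, HIST1H2AA and HIST1H2BA, which encode testis forms of H1, H2A and H2B. The fourth testis gene, HIST3H3, never had more than 2 counts. The PS pseudogenes never had more than 5.

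The counts were concentrated in few genes. HIST1H2BK, HIST1H2AC, HIST1H1C, HIST1H4I and HIST2H2BE, averaging 20.7, 10.5, 10.0, 7.69 and 5.99 CPM over the 12 libraries, held 66.7% of the members' summed level. Of these 5, 4 are among the genes named above as sources of polyadenylated transcripts. That group was named as examples, with earlier results of these data known, so the match is a description only. HIST1H2BD, the last gene of that group, stood at 2.55 CPM, between HIST4H4 (3.18) and HIST3H2A (2.44). By class, H2B held 47.0% of the summed level, H2A 19.0%, H4 16.6%, H1 13.1% and H3 4.38%. The highest H3 genes were HIST1H3E at 1.38 CPM, HIST1H3H at 0.802 and HIST1H3G at 0.572. Among the H1 genes, HIST1H1C was followed at a distance by HIST1H1E (0.346 CPM) and HIST1H1B (0.259 CPM). In H2A, HIST1H2AG (1.48 CPM) followed HIST1H2AC and HIST3H2A, and in H4, HIST1H4E (0.874 CPM) followed HIST1H4I and HIST4H4. Levels between genes compare only per length of the counted model, which ran from 297 to 5477 bases. Per 1000 bases the order was led by HIST1H2BK (54.4 CPM per kb), HIST1H1C (15.6), HIST1H2AC (6.28), HIST1H4I (5.94), HIST1H2BD (2.92) and HIST2H2BE (2.73).

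**Figure D1:**
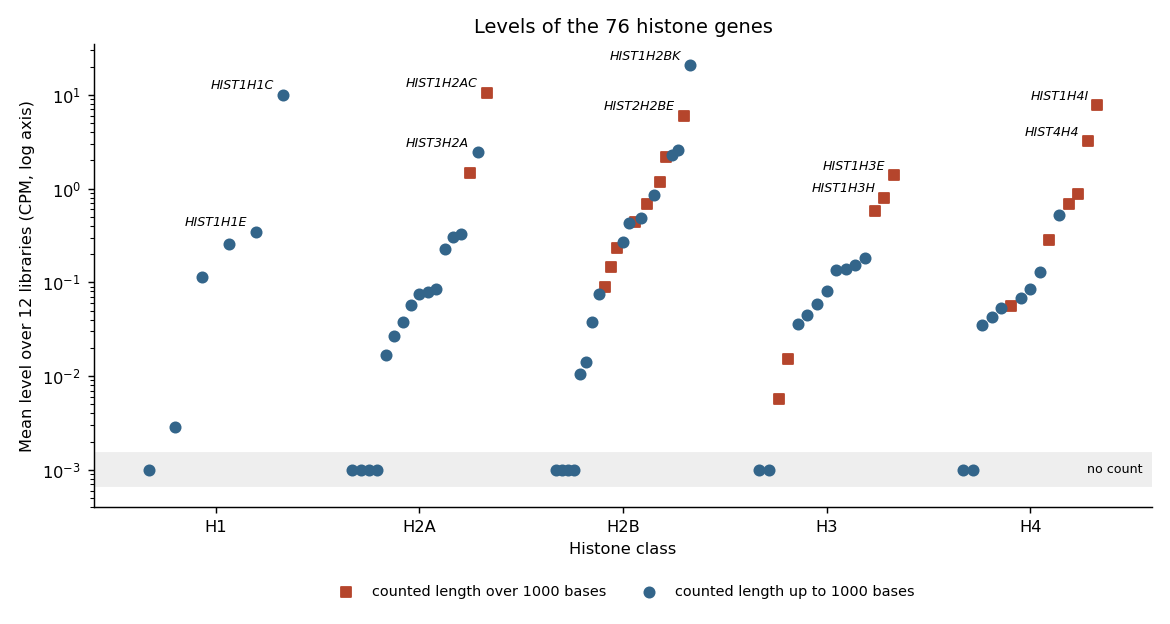
Mean level of each of the 76 genes over 12 libraries (CPM, log axis), ordered within its class, with the 2 highest of each class named. Squares mark counted models over 1000 bases and circles shorter ones, and the 13 genes with no count are drawn on the grey band. HIST1H2BK leads at 20.7 CPM and most of the 76 lie under 1 CPM.

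The counted models differ in kind. For 21 genes the model is longer than 1000 bases (median 2060), and 14 of these passed the filter on low counts, while 11 of the 55 shorter ones (median 411) did. Of the short models, 23 had at most 3 counts in every library, against 2 of the long ones. The median level was 0.683 CPM in long and 0.0674 CPM in short models, and per 1000 bases 0.314 against 0.152 CPM. The short models nevertheless held 53.3% of the members' summed level. Among them, HIST1H2BK (381 bases, chr6:27146418-27146798) and HIST1H1C (642 bases, chr6:26055787-26056428), whose models hold only a coding exon, had the first and the third highest levels in CPM. HIST1H2BD (871 bases), HIST3H2A (895 bases) and HIST1H2BJ (950 bases, 2.27 CPM) also lay well above the median of the long models.

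Some counts cannot be assigned to a single gene. Of the 76, 30 share at least one 100-base window with another gene, and for 18 this is over 50 percent of their windows, as in the HIST2H4A and HIST2H4B or HIST2H3A and HIST2H3C pairs. HIST1H2BK shares 80 of its 282 windows with other genes, so part of its counts is uncertain, whereas HIST1H1C, HIST1H2AC and HIST1H4I share none. HIST1H4I is uncertain for another reason. Its counted bases (chr6:27138588-27139881, plus strand, 1294 bases) lie wholly inside the span that RefSeq gives HIST1H2BK (chr6:27138293-27146858, minus strand, 8566 bases). The RefSeq span of the H4 gene itself is 397 bases. The kit named in the labels is directional, but whether strand was used in counting is not stated, so reads from a long HIST1H2BK transcript and from HIST1H4I cannot be told apart.

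**Figure D2:**
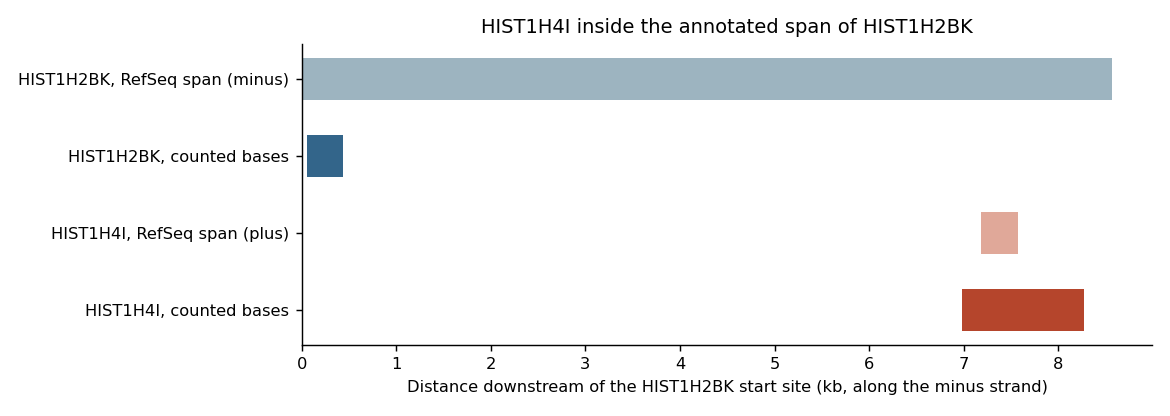
Map of the annotated RefSeq spans and counted bases of HIST1H2BK and HIST1H4I, drawn by distance in kb downstream of the HIST1H2BK start site. The 1294 counted bases of HIST1H4I lie within the 8566-base span of HIST1H2BK on the opposite strand.

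HIST1H2BK, an H2B gene, had 33.4, 17.9 and 15.998 CPM in control vector libraries 1, 2 and 3, 16.8, 29.4 and 27.3 in ∆GAG-BG, 20.4, 15.1 and 18.9 in S534A and 19.5, 16.8 and 17.5 in S545A. HIST1H1C, which encodes linker histone H1.2, had 21.1, 8.05 and 7.55 CPM in control vector, 8.29, 15.96 and 13.8 in ∆GAG-BG, 7.49, 4.10 and 7.88 in S534A and 7.98, 9.54 and 8.74 in S545A. HIST1H4I had 11.8, 5.65 and 6.92 CPM in control vector, 6.89, 10.6 and 10.5 in ∆GAG-BG, 7.21, 5.23 and 7.94 in S534A and 7.24, 6.02 and 6.21 in S545A. Each of these 3 genes was highest in the same 3 libraries, control vector 1, ∆GAG-BG 2 and ∆GAG-BG 3, which are also the 3 with the least TGFBR3. These libraries did not overlap with the other 9 for any of the 3 genes. Of the 16069 tested genes, 241 had the same 3 libraries highest. Of the 25 tested members, 1 went the other way, with these 3 libraries lowest: HIST1H2BN, an H2B gene. It had 0.899, 0.975 and 1.038 CPM in control vector 1, ∆GAG-BG 2 and ∆GAG-BG 3. The next value was close, at 1.046 CPM in S545A 1. How many of all genes had these 3 libraries lowest was not counted. The libraries stand out by their levels and not by a label, so no test was made, and the part that the construct, the culture or the library had in it was not tested.

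The other leading members did not follow these libraries. HIST1H2AC, an H2A gene, had 11.2, 9.37 and 9.97 CPM in control vector, 14.1, 9.56 and 9.70 in ∆GAG-BG, 9.77, 10.8 and 9.94 in S534A and 8.09, 11.2 and 11.9 in S545A, and all groups overlapped. HIST2H2BE, an H2B gene, had 5.60, 5.46 and 6.65 CPM in control vector, 5.89, 5.52 and 5.41 in ∆GAG-BG, 5.11, 4.10 and 6.79 in S534A and 6.003, 7.93 and 7.44 in S545A. All 3 S545A values lay above those of ∆GAG-BG, with overlap against the other 2 groups. HIST4H4 had 2.56, 3.48 and 2.70 CPM in control vector, 3.62, 2.41 and 3.47 in ∆GAG-BG, 2.17, 1.33 and 4.24 in S534A and 3.21, 4.601 and 4.30 in S545A, and all groups overlapped. Over the 12 libraries, HIST1H2BK correlated with HIST1H4I at r = 0.94 and with HIST1H1C at r = 0.91, while the 13 other members with at least 10 counts in every library ran from -0.69 (HIST1H2BN) to 0.55 (HIST1H2BJ) against the mean of the 3. These are Pearson correlations of log2(CPM + 1) over libraries that share a depth scaling, given as a description. The 3 genes were picked for having the same highest libraries, so high correlations among them add no separate support. Reads of HIST1H2BK and HIST1H4I may also be mixed, as described above.

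**Figure D3:**
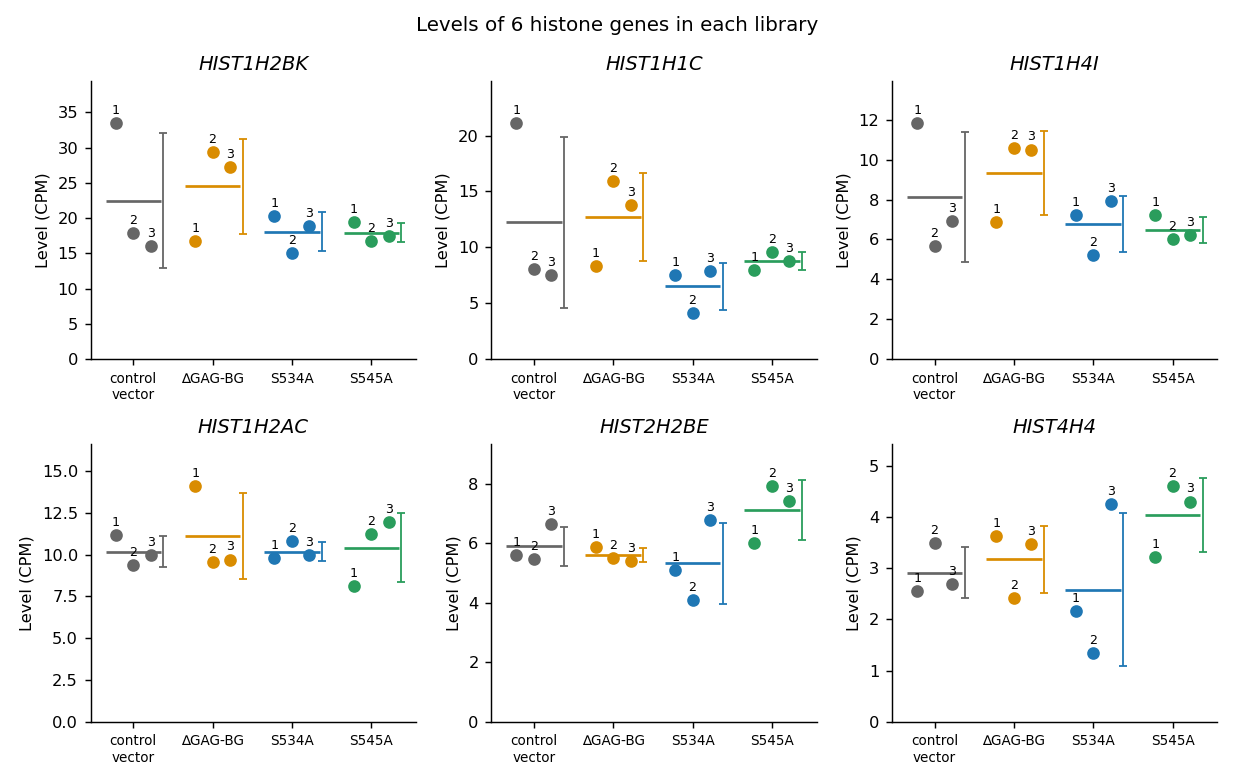
Levels (CPM) of 6 histone genes in every library. Points are libraries, numbered by replicate, horizontal lines the mean of 3 and bars the SD; in the upper row control vector 1 and ∆GAG-BG 2 and 3 lie above the other 9 libraries, and in the lower row they do not.

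S534A library 2 also stood apart, lowest for some members and highest for others. It had the least of HIST3H2A (0.700 CPM, against 1.90 to 3.76 in the other 11 libraries), of HIST1H2BJ (0.49997 against 1.86 to 3.202), of HIST1H2BH (1.10 against 1.76 to 3.09) and of HIST4H4. Other tested members were instead highest there: HIST1H3E (1.80 CPM), HIST1H4H (1.03), HIST1H2BG (0.900), HIST1H4C (0.800) and HIST2H2AC (0.633). How many of all genes were lowest or highest in this library was not counted. PCNA, the sliding clamp of DNA replication, was highest there at 311 CPM, and so was SLBP at 107 CPM. ∆GAG-BG 1 was lowest for both, at 73.7 CPM of PCNA and 44.6 CPM of SLBP. The summed level of the 25 listed S phase genes was 3952 CPM in S534A 2 and 1586 CPM in ∆GAG-BG 1. The summed level of the 76 histone genes did not follow that order. It was 60.5 CPM in S534A 2, its lowest value, and 78.8 CPM in ∆GAG-BG 1. The S phase sum was 3461, 2266 and 2281 CPM in control vector 1, 2 and 3, beside histone sums of 111.7, 75.6 and 73.0. In ∆GAG-BG 2 and 3 it was 3192 and 3178 CPM, beside 97.2 and 95.3 CPM. Within these groups both sums were thus higher in the libraries with little TGFBR3. Within S534A and S545A the histone sum was instead lowest where the S phase sum was highest, in S534A 2 and S545A 1. A relation between the sums was not tested.

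By group, the summed level was 86.8 ± 21.6 CPM (SD, n = 3) in control vector, 90.5 ± 10.1 in ∆GAG-BG, 72.6 ± 10.9 in S534A and 79.5 ± 3.15 in S545A, and all groups overlapped. Without HIST1H1C, HIST1H2BK and HIST1H4I the sums were 43.9 ± 1.39, 44.0 ± 2.82, 41.2 ± 5.45 and 46.3 ± 4.45 CPM, and all groups overlapped. In these bulk samples, fewer cells in S phase and less histone RNA per cell cannot be told apart.

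**Figure D4:**
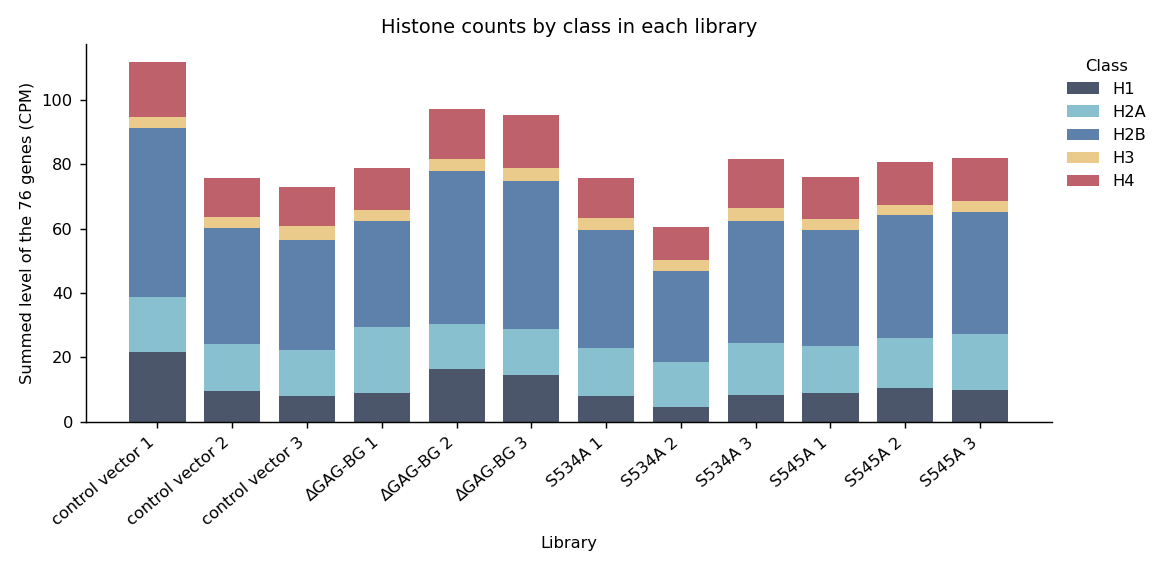
Summed level (CPM) of the 76 genes in each library, stacked by histone class. The tallest bar is control vector 1 (111.7 CPM) and the shortest S534A 2 (60.5 CPM), and the H1 and H2B parts vary most.

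The comparisons between groups were made for the 25 members that passed the filter on low counts (2 H1, 4 H2A, 11 H2B, 3 H3 and 5 H4), with edgeR's quasi-likelihood test over all 16069 genes and Benjamini-Hochberg adjustment. The remaining 51 members, at most 16 counts in any library, were not tested. No member had an adjusted p under 0.05 in any of the 6 comparisons by edgeR, and DESeq2 and limma-voom also gave 0. The background is the same by edgeR, which called 0% of all genes in each comparison. For DESeq2 and limma-voom the share of all genes is not given here. The counts below are therefore of unadjusted p under 0.05 and are descriptions.

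∆GAG-BG was compared with control vector to ask what BG without GAG chains does. None of the 25 members had an unadjusted p under 0.05, where 0.871% of all genes did. The median log2 fold change of the members was 0.04, against 0.00 over all genes, and the values ran from -0.37 to 0.32. HIST1H3E, an H3 gene, and HIST1H3G, another, had the smallest p-values, with log2 fold changes of 0.32 ± 0.30 and -0.34 ± 0.37 (SE, edgeR adjusted p = 1.00 for both). HIST1H1C, HIST1H2BK and HIST1H4I had log2 fold changes of 0.05, 0.12 and 0.19, each an average over libraries that differ within the group. With library 1 only of both groups, these were -1.36, -1.01 and -0.80, and 7 of the 30 members then tested had an unadjusted p under 0.05, where 9.07% of all genes did. With libraries 2 and 3 only, they were 0.93, 0.74 and 0.74, and 3 of 26 members did, where 3.70% of all genes did. For these 3 genes the comparison thus changed direction with the libraries used. They were picked for being highest in control vector 1 and ∆GAG-BG 2 and 3, so both signs follow from that choice and add no support. Leaving out control vector 1 gave 4 of 26 members (1.02% of all genes), and leaving out control vector 3, ∆GAG-BG 1 or ∆GAG-BG 3 gave 1 each (0.817%, 2.49% and 1.13% of all genes).

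S534A and S545A were compared with ∆GAG-BG to ask what a single GAG site adds. In S534A, 1 member had an unadjusted p under 0.05, where 2.99% of all genes did, and the median of the members was -0.08. HIST1H1C was 6.49 ± 2.08 CPM (SD, n = 3) in S534A and 12.7 ± 3.96 in ∆GAG-BG, without overlap. Its log2 fold change was -0.98 ± 0.40 (SE, edgeR adjusted p = 0.890). Next came HIST1H4I at -0.46 ± 0.27 (adjusted p = 0.890). The ∆GAG-BG mean was carried by libraries 2 and 3, those with little TGFBR3, and with library 1 only of ∆GAG-BG the log2 fold change of HIST1H1C was -0.36, against -1.21 with libraries 2 and 3 only. The count of members varied with the libraries. It was 0 without S534A 2 (1.92% of all genes) and without ∆GAG-BG 2 (3.72%), 2 of 28 without S534A 3 (10.8%) and 4 of 28 without ∆GAG-BG 1 (3.99%). With libraries 2 and 3 only of ∆GAG-BG it was 4 of 26 (4.09%), and with library 1 only 1 of 30 (11.1%). In S545A no member had an unadjusted p under 0.05, where 1.10% of all genes did, and the median was -0.07. HIST1H4I (-0.52 ± 0.27) and HIST2H2BE (0.34 ± 0.18) had the smallest p-values, both with an adjusted p of 1.00. Each library of S545A or ∆GAG-BG left out in turn gave 1 to 3 members, with 3 of 28 without ∆GAG-BG 1 (5.55% of all genes), and the share of all genes in the other 5 fits ran from 0.729% to 1.97%. Libraries 2 and 3 only of ∆GAG-BG gave 4 of 26 (6.24%), and library 1 only gave 2 of 30 (5.36%).

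Against control vector, 2 members had an unadjusted p under 0.05 in S534A, where 3.45% of all genes did, and the median was -0.09. HIST2H2BF, an H2B gene, had 0.284, 0.200 and 0.242 CPM in S534A and 0.691, 0.518 and 0.313 in control vector, without overlap, from 4 to 20 counts a library over the series. Its log2 fold change was -1.07 ± 0.42 (SE, edgeR adjusted p = 0.871). HIST1H1C had -0.93 ± 0.40 (adjusted p = 0.871), and the groups overlapped. Neither had an unadjusted p under 0.05 without S534A 2 or without control vector 1, and HIST1H1C had -0.28 without the latter. All genes then stood at 1.27% and 4.41%. With libraries 2 and 3 only of control vector the count was 0 of 26 (7.06% of all genes), and with library 1 only it was 5 of 30 (1.89%). In S545A no member had an unadjusted p under 0.05, where 1.05% of all genes did, and the median was -0.05. HIST1H3G (-0.66 ± 0.38) and HIST1H2BN (0.35 ± 0.22) had the smallest p-values, with an adjusted p of 1.00 for both, and the latter's counted bases hold those of HIST1H2AK on the other strand. Without S545A 1 the count was 1 of 25 (2.64% of all genes). With libraries 2 and 3 only of control vector it was 0 of 26 (1.17%), and with library 1 only 4 of 30 (3.49%).

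S545A and S534A were compared with each other, which does not involve the groups whose TGFBR3 goes against the labels. Here 3 members had an unadjusted p under 0.05, where 4.78% of all genes did, and the median was 0.03. HIST2H2BF had 0.620, 0.587 and 0.649 CPM in S545A, all above its 3 values in S534A. Its log2 fold change was 1.34 ± 0.41 (SE, edgeR adjusted p = 0.702), and it stayed between 1.199 and 1.503 with each library left out. Its model overlaps FCGR1A on the other strand. HIST1H2BG, an H2B gene, had 0.465, 0.636 and 0.512 CPM in S545A and 0.888, 0.900 and 0.727 in S534A, with -0.66 ± 0.25 (adjusted p = 0.702). HIST2H2BE had 0.43 ± 0.18 (adjusted p = 0.702), and the groups overlapped. The count was 1 without S534A 1 (6.77% of all genes), without S534A 2 (1.76%) or without S545A 3 (1.68%), and 5 of 28 without S534A 3 (15.8%).

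**Figure D5:**
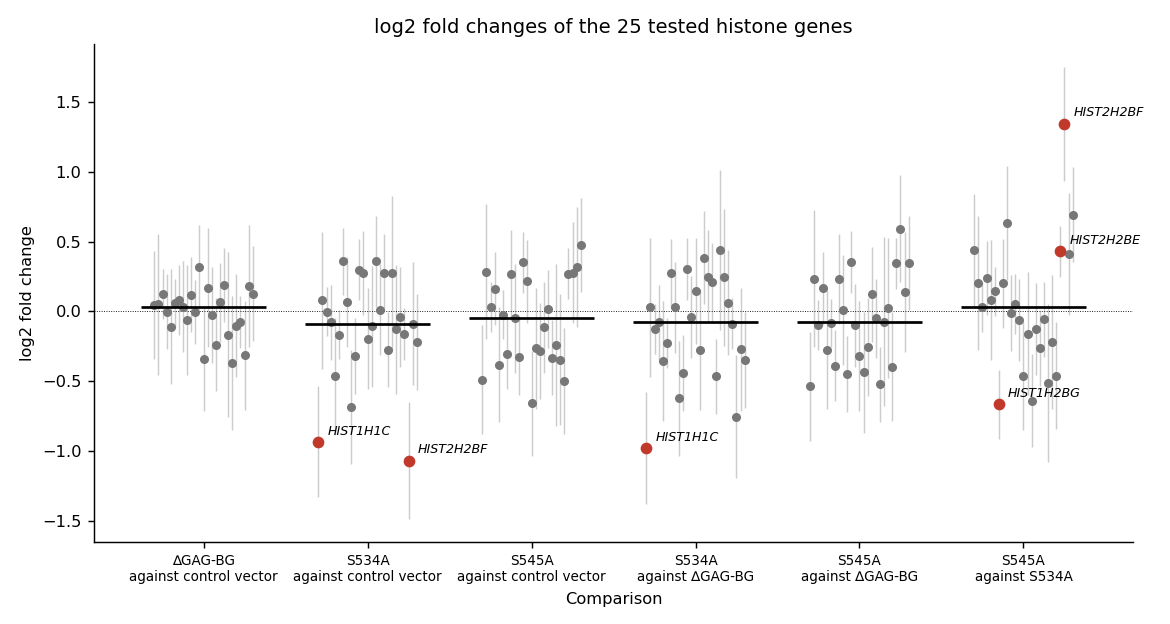
log2 fold changes of the 25 tested members in the 6 comparisons, with bars for the SE and a black line at the median. Named red points have an unadjusted edgeR p under 0.05 and none has an adjusted p under 0.05; the medians lie between -0.09 and 0.04.

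The replacement histone genes, most of which lie outside the histone clusters and give polyadenylated mRNA, had means from 9.54 CPM (H2AFY2) to 613 CPM. All 11 of the list were tested, and the highest were H3F3B (613 CPM, an H3.3 gene), H2AFZ (338 CPM, H2A.Z) and H2AFX (189 CPM, H2A.X). H3F3B alone was thus above the summed level of all 76 replication-dependent genes in every library. No gene of this list had an adjusted p under 0.05 in any comparison, and its medians ran from -0.03 to 0.03. Unadjusted p was under 0.05 for H2AFJ (-0.21) when S534A was set against control vector, and for H2AFJ (0.29) and H1F0 (0.54) when S545A was set against S534A.

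Genes that make, process or deposit histones were read from 3 further lists, again with no adjusted p under 0.05 in any comparison. Of 15 factors of histone mRNA, NPAT, the coactivator of histone genes, had an unadjusted p under 0.05 in S534A against ∆GAG-BG (log2 fold change 0.27). CASP8AP2, needed for histone transcription and processing (0.28), and CCNE2, a cyclin of S phase entry (1.05), did in S534A against control vector. When S545A was compared with S534A, 4 of the 15 were lower at an unadjusted p under 0.05: CASP8AP2 (-0.39), CCNE2 (-1.38), NPAT (-0.29) and CCNE1 (-1.04). None was higher, and the list's median was -0.24, where 4.78% of all genes had such a p. Without S534A 2, CASP8AP2 alone of the 4 still did (-0.30), with CCNE2 at -0.71, NPAT at -0.21 and CCNE1 at -0.53. SLBP ran from 44.6 to 107 CPM, ERI1, the nuclease of the stem-loop, from 28.1 to 48.8, and LSM10, LSM11 and ZNF473, of the U7 machinery, averaged 25.1, 13.6 and 16.1 CPM. None of these 5 had an unadjusted p under 0.05 in any comparison. Of 25 S phase genes, 4 were lower in S545A than in S534A at an unadjusted p under 0.05 (CDC6 -0.95, CDC45 -1.01, PCNA -0.91 and RRM2 -0.72), with a list median of -0.61, beside 4.78% of all genes. These values leaned on S534A 2, with 42.9 CPM of CDC45 against 24.0 and 16.5 in S534A 1 and 3. Without it none of the 4 had an unadjusted p under 0.05 (CDC6 -0.65, CDC45 -0.55, PCNA -0.54 and RRM2 -0.43). The summed S phase level of S545A 1 (3078 CPM) lay above that of S534A 3 (2571 CPM), so the groups overlapped. In the other 5 comparisons, with all libraries used, no S phase gene of the list had an unadjusted p under 0.05. The list's medians there ran from -0.23 to 0.30. These comparisons average over unlike libraries of ∆GAG-BG and control vector. With libraries 2 and 3 only of these 2 groups, PCNA, RRM2, CDC6 and CDC45 had 0.44, 0.54, 0.60 and 0.53 in ∆GAG-BG against control vector. With library 1 only, they had -1.40, -1.20, -0.61 and -1.32. Of 15 histone chaperones, only CHAF1A, a subunit of the assembly factor CAF-1, had an unadjusted p under 0.05 (-0.72 in S545A against S534A). In that comparison the median of the histone members (0.03) did not follow the medians of these lists.

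RNAs without a poly(A) tail were read as a last list, by the counts assigned to each. These counts do not measure how much such RNA the libraries held. Of 12 listed, 6 passed the filter, and the highest were RN7SL2 (30.0 to 84.1 CPM) and RN7SL1 (17.4 to 64.6 CPM), RNAs of the signal recognition particle, followed by RN7SK (1.07 to 6.73 CPM). None had an adjusted p under 0.05. At an unadjusted p under 0.05, RMRP (-1.45), SNORD3A (-1.66) and RN7SK (-1.35) had negative log2 fold changes in ∆GAG-BG against control vector, as had RMRP in S534A (-1.20) and SNORD3A in S545A (-1.49) relative to control vector. These rested on control vector 1 and 2, and the groups overlapped in each case. SNORD3A was 5.32 and 7.53 CPM there but 0.782 CPM in control vector 3, below all values of ∆GAG-BG and S545A. RMRP was 3.97 and 6.45 CPM against 1.37 CPM, and RN7SK 4.74 and 6.73 CPM against 1.37 CPM. Without control vector 2, none of these 5 differences had an unadjusted p under 0.05. The highest RN7SL2 and RN7SL1 levels were both in S534A 2, the library with the lowest histone sum.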

How the data were processed

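RNA-seq of 12 HEYA8 libraries (4 groups of 3) was used. The authors deposited 1 table of raw counts per gene. The submitters' processing notes list FastQC, Trim Galore 0.4.5, STAR 2.4, SAMtools 1.2 and featureCounts, and name mm10 and GRCm38 as builds, but 33648 of the 36113 symbols shared with GENCODE release 29 have the same span there, as do 73 of the 76 members, so coordinates are given on GRCh38. The use of strand is not given in the sources used here. RefSeq entries matched 70 members.

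The members and lists were chosen with earlier results of these data known. Genes were kept by filterByExpr (minimum count 10), and TMM scaling gave the CPM used here. One model held all groups and 16069 genes (edgeR 4.0.16, robust quasi-likelihood test, R 4.3.3), and was tested on simulated data. Members named were the 3 highest of each class, the 2 with the smallest p in each comparison, the testis genes and 5 known for polyadenylated transcripts. HIST1H2BJ, HIST1H2BH and pairs of near-identical genes were named after their values were seen. Lists covered replacement histones, histone mRNA factors, chaperones, S phase genes and RNAs without poly(A). Genes of them were named by level or for an unadjusted p under 0.05, the latter after their values were seen. Likeness was Pearson r over the 12 libraries. Alternatives were DESeq2 1.42.0, limma-voom (limma 3.58.1), RLE factors, library size only, no filter, 10 counts in every library, the 2 groups only, the replicate block and each library left out. Same-numbered libraries of S545A and control vector deviated together (correlations of 0.60, 0.30 and 0.29), and on this alone were taken as pairs. The 3 correlations are not independent, as deviations from a mean of 3 sum to 0. In both groups library 1 lay apart from libraries 2 and 3 (chi-square per degree of freedom 25.6 to 29.1, against 1.37 and 1.41 between the latter).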

Additional observations from a re-analysis of the deposited data

How the results depend on the processing

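No member had an adjusted p under 0.05 in any comparison under any alternative run, the replicate block included, where the count was also 0. The share of all genes called at that threshold is not given here for the alternatives, so this result cannot be read as particular to the members. The block changed no call for S545A against control vector, the comparison whose numbers were taken as pairs. For S534A against control vector, where the libraries share only a number, the block left 1 member with an unadjusted p under 0.05 in place of 2 (3.58% of all genes), as did DESeq2 (3.08%) and the filter of 10 counts in every library (3.01%), and the 2 groups alone left 0 (1.85%). Without a filter, 63 members were tested in place of 25, and this count was 5 for ∆GAG-BG against control vector (1.26% of all genes), 3 for S545A against ∆GAG-BG (1.38%), 1 for S545A against control vector (1.44%) and 7 for S545A against S534A (3.80%). The 2 groups alone gave 2 of 22 for S545A against ∆GAG-BG (1.21%) and 2 of 25 against control vector (2.61%). With library 1 only of the ∆GAG-BG and control vector groups, which was added after the data were seen, the median log2 fold change of the members between them was -0.26 in place of 0.04, and HIST1H1C (-1.36), HIST1H2BK (-1.01) and HIST1H4I (-0.80) reversed. There, a lone library was assumed to vary like the other groups. In the other alternatives the medians moved by less than the spread between libraries. Of the 25 tested members, 9 had under 10 counts in at least 1 library, where small differences were not detectable at this depth.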

Other observations

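Over the 12 libraries, the 16 members with at least 10 counts in every library did not form one profile. Against the mean of the other 15 on log2(CPM + 1), Pearson r had a median of 0.41 and ran from -0.75 for HIST1H4H to 0.69 for HIST1H2BH and HIST1H2BJ. Among genes other than the members, those with levels most like the members' mean were RP1-267D11.6 (r = 0.96), CAPN10-AS1 (0.94) and AP001469.9 (0.94), followed by ZDHHC2 and SEMA3A (0.93 and 0.92). These were the highest of all genes with at least 10 counts in every library, and the libraries share one scaling.

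HIST1H1B, the H1.5 gene, was too low to be tested. It had 0 counts in ∆GAG-BG 1 and 0.0464 and 0.226 CPM in ∆GAG-BG 2 and 3, against 0.311, 0.518 and 0.235 CPM in control vector, 0.178, 0.133 and 0.242 in S534A and 0.465, 0.343 and 0.410 in S545A, from at most 12 counts in any library.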
